A study of Homo sapiens with 54 samples.

Results

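Newly acetylated progesterone receptor (PR) sites are places in the genome where PR was found only after hormone and where acetylated lysine 27 of histone H3 (H3K27Ac) was also found only after hormone. They were chosen as the PR regions of the R5020 list on chromosomes 1 to 22 and X that shared at least 1 bp with an R5020 H3K27Ac region and no base with a vehicle PR or vehicle H3K27Ac region. The rule gave 10418 of 173115 R5020 PR regions, or 6.02%. The lists came from chromatin immunoprecipitation followed by sequencing (ChIP-seq) in T47D, an established human breast cancer cell line that carries the estrogen and progesterone receptors. Cells received either ethanol as vehicle or R5020, a synthetic agonist of PR, for 1 h, and the labels give no other difference between the groups. Antibodies against PR, H3K27Ac, the initiation factor Brf1, the repressor Maf1 and 4 subunits of RNA polymerase III (POLR3A, POLR3C, POLR3G, POLR3GL) were used, with 3 libraries and 1 deposited list of enriched regions for each antibody and treatment. For 4 libraries titled R5020 (2 of POLR3C, 1 of POLR3G and 1 of POLR3GL) the treatment tag names ethanol, and the titles were followed.

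PR is a ligand-activated transcription factor. Hormone releases it from chaperones, and it binds DNA as a dimer at an inverted repeat of a short arm that it shares with related steroid receptors. At many sites it recruits coactivators with histone acetyltransferase activity, and H3K27Ac marks active enhancers and promoters. Maf1 binds RNA polymerase III and represses transcription of tRNA and other short genes, and its presence at PR sites is a subject of the series.

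Each region carries 2 values of the authors, the ratio of ChIP signal to background (its fold) and a −log10 q-value. With 1 list per antibody and treatment there was no replicate spread, so no p-values are given. Shares of regions are given with 95% Wilson intervals and differences of shares with Newcombe intervals, which cover counting error only. Neighbouring regions are not independent, and absence from a list says only that no region passed the caller's threshold. The R5020 H3K27Ac list was the longer of its pair, with 112542 regions against 88869 with vehicle. Sequencing depth is unknown, since the lists hold no read counts. As a check of the cell type, H3K27Ac regions lay within 1 kb of a start of 5 of 5 luminal marker genes in both treatments (GATA3, FOXA1, ESR1, PGR and KRT8), and 4 further luminal markers had no start in the table used and were not read. Of 5 basal or mesenchymal markers with a known start, 1 had such a region with vehicle and 2 with R5020. ZEB1 had one in both treatments, at 4 of its 7 starts, and VIM only with R5020. KRT5, TP63 and CDH2 had none in either treatment. Of 2 stromal or immune markers with a known start, none had one with vehicle and 1 (PDGFRB) had one with R5020.

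DNA sequence was read where a newly acetylated PR site overlapped the start of a RefSeq transcript (GRCh38.p14, 250 bases before to 50 after the start). There were 173 such windows over 156 of the sites. Only the 250 bases before the start are printed, 5′ to 3′ along the strand of the gene, which is the plus strand in each case. Capitals mark TGTTCT, the arm of the progesterone response element, on either strand (AGAACA on the other), the paired element (GNACA, 3 bases of any kind and TGTNC), and TGTTTAC, a forkhead motif of the kind FOXA1 binds. DAAM1 and ESR1 were named by the rule for loci, and the other 5 were chosen after their values were seen. Each of these 5 held a marked motif, so the windows shown are not representative of the 173.
DAAM1, internal start, chr14:59263191-59263440: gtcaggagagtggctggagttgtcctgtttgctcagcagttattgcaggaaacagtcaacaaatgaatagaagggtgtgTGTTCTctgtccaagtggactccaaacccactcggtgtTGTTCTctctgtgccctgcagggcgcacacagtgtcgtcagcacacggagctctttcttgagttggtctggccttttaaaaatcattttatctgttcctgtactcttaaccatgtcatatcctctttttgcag
LOC107984552, chr13:44310992-44311241: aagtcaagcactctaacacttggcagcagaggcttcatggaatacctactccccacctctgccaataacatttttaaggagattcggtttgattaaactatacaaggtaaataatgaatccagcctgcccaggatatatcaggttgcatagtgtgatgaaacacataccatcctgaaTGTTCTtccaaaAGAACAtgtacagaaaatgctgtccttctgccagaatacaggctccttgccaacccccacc
DEFB132, chr20:257474-257723: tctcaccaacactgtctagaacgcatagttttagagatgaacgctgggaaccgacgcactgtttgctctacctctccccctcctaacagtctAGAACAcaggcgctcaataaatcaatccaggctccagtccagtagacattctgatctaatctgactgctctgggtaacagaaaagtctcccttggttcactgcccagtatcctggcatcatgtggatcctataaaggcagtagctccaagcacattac
LOC105375170, chr7:16989968-16990217: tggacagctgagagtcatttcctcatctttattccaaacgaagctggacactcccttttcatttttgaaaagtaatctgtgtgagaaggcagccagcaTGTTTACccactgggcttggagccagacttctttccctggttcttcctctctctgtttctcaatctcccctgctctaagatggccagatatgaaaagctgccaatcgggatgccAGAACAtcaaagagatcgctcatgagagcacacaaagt
FGD4, internal start, chr12:32534072-32534321: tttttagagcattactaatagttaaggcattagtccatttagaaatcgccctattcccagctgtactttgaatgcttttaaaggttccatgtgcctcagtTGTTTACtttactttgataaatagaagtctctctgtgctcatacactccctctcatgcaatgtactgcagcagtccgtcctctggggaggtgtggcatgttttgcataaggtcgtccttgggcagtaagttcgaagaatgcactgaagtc
LOC105371775, chr17:40671355-40671604: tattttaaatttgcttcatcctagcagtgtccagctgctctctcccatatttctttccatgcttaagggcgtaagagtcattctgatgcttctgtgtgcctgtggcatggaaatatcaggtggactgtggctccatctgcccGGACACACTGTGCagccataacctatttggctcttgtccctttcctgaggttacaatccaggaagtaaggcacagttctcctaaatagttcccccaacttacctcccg
ESR1, internal start, chr6:151805455-151805704: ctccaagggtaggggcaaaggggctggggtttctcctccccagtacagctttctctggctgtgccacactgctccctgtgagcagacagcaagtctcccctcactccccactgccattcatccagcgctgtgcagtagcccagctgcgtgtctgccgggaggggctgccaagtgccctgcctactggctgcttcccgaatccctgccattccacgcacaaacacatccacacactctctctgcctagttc

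The PR region over the LOC107984552 window, the start of a long noncoding RNA gene, had a fold enrichment of 39.4, an H3K27Ac fold of 3.49 and a Maf1 fold of 4.34, and the nearest vehicle H3K27Ac region was 38673 bp away. Its window held TGTTCT on the plus strand and AGAACA after a short spacer, and the closer arm lay 1 bp from the PR summit. The arms stood in the reverse order of the paired element, which had no match in the bases shown. In the DEFB132 window, before a beta-defensin gene, the PR fold was 39.1 and the arm lay 13 bp from the summit. The arm in the LOC105375170 window lay 11 bp from the summit of a PR region of fold 41.2. FGD4, which encodes an exchange factor for Cdc42, had the strongest of the 7 PR regions, with a fold of 49.3. Its window held no arm, and its forkhead motif lay 65 bp from the PR summit. DAAM1, a formin of Wnt signalling, had 2 arms on the plus strand, 117 and 155 bp from the summit of a PR region of fold 45.1 with a Maf1 fold of 16.9. The paired element before LOC105371775 was 394 bp from the PR summit, which lay beyond the start. The ESR1 window, at an internal start of the estrogen receptor alpha gene, held none of these letters in the bases shown, under a PR region of fold 17.6 with its summit 18 bp past the start.

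Across the 173 windows of 300 bases, 50 (28.9%, 95% Wilson interval 22.7 to 36.1) held TGTTCT on either strand, against 14.8% of all 34789 RefSeq windows. The share was 9.37% of 8274 windows over hormone-induced PR sites that were already acetylated and 32.0% of 979 windows over those without acetylation. The paired element was in 4 of the 173 windows (2.31%, 0.903 to 5.79) and in 0.391% of all windows, and a match of it can contain TGTTCT. The forkhead motif TGTTTAC was in 6.36% (3.59 to 11.0) against 3.42% of all windows, and the AP-1 motif TGANTCA in 9.83% (6.23 to 15.2) against 7.69%. The estrogen response element (GGTCA and TGACC with 3 bases between) was in 0 of 173 against 0.0575%. Over sites without acetylation the paired element was in 3.575% of windows, the forkhead motif in 6.74% and AP-1 in 13.7%. Over already acetylated sites these 3 shares were 0.314%, 2.38% and 4.36%. Base composition moved with these shares, and its part in them was not tested: the median GC content of the 250 bases before the start was 52.0% over newly acetylated sites, 65.2% over already acetylated ones, 46.0% over those without acetylation and 58% over all windows. Of 69 newly acetylated sites whose PR summit fell within 250 bases before a start, 16 (23.2%, 14.8 to 34.4) had the arm within 50 bp of the summit. The same held for 6.55% of 2487 already acetylated sites (5.65 to 7.60) and for 25.2% of 433 sites without acetylation (21.3 to 29.5). A match is a description of the letters and not of a bound site.

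The comparison sets throughout were 39437 hormone-induced PR sites that overlapped a vehicle H3K27Ac region, called already acetylated, and 117366 with no H3K27Ac region in either treatment, called unacetylated. The values that chose the sites are given as description. PR fold over newly acetylated sites ran from 1.83 to 56.6 with a median of 9.77, against medians of 7.26 over already acetylated and 5.42 over unacetylated sites. Median PR region width was 389.5 bp, against 399 and 249 bp. The H3K27Ac fold over newly acetylated sites had a median of 3.61 and a maximum of 35.5. The median was 3.74 over all R5020 H3K27Ac regions and 8.48 over already acetylated sites that kept the mark. The median H3K27Ac −log10 q was 4.55, with 444 sites (4.26%) under 2 and 641 (6.15%) at 20 or more. The site with the weakest acetylation was inside NR5A2, an orphan nuclear receptor gene (chr1:200130201-200131060), with a PR fold of 26.0 and an H3K27Ac −log10 q of 1.31. The site kept out by the weakest vehicle acetylation was inside ANXA13, an annexin gene, with a PR fold of 15.5 and a vehicle −log10 q of 1.32.

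The sites were not spread evenly over PR strength. Of 127784 hormone-induced PR sites outside vehicle acetylation, 8.15% were newly acetylated. When these 127784 were split into 10 groups of about equal size by fold, the newly acetylated share was 5.71% in the weakest group and 4.20 to 7.81% in the next 7. It was 11.0% in the ninth and 26.5% in the group of highest fold, which runs from 17.4 to 56.6. The share also fell with distance from acetylation that was there before hormone. It was 40.7% where a vehicle H3K27Ac region lay under 200 bp away, 26.9% at 200 bp to 1 kb, 13.1% at 1 to 5 kb, 6.12% at 5 to 20 kb and 1.06% at 100 kb and over. In the group of strongest PR the share was 61.5% under 200 bp and 8.81% at 100 kb and over, and in the weakest group 40.7% and 0.560%. Both groups were thus high beside older acetylation, and they differed most in relative terms far from it. The PR and H3K27Ac lists chose the sites, so shares by their values are given as description and carry no test. PR region width moves with fold, and its part in these shares was not tested. In the other direction, 5625 of the 39437 already acetylated sites (14.3%) had no R5020 H3K27Ac region.

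**Figure D1:**
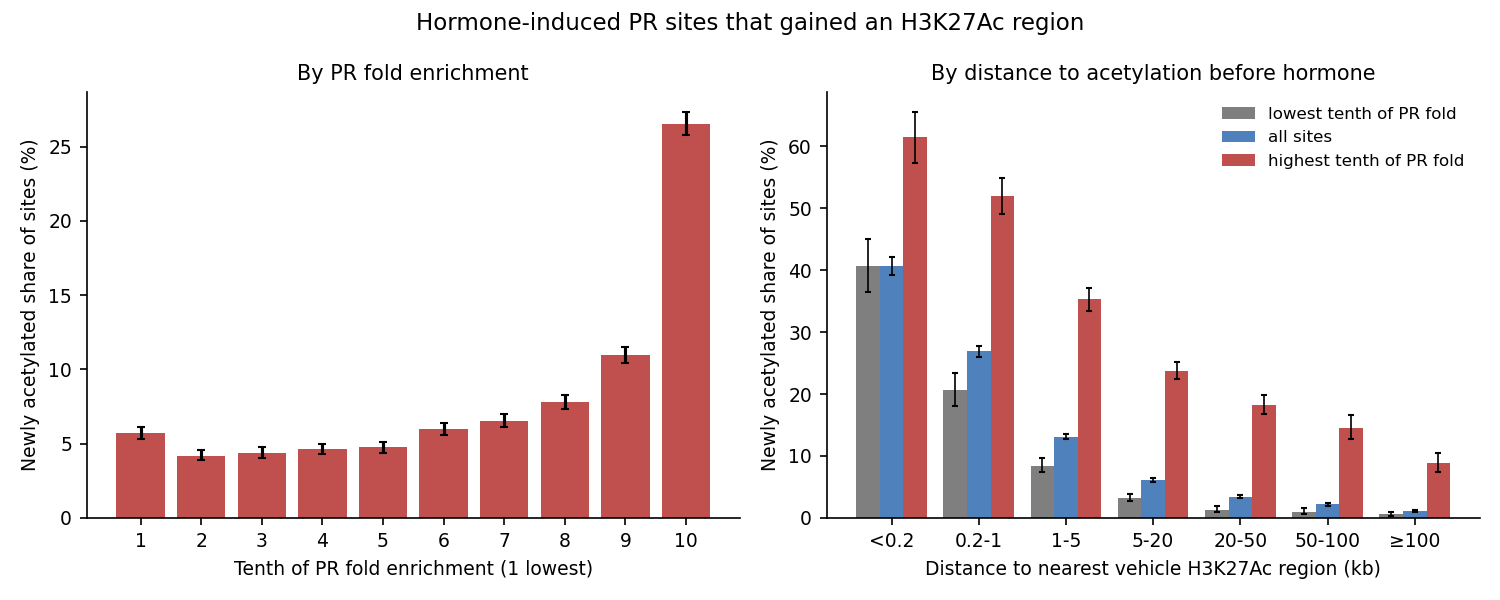
Share of hormone-induced PR sites outside vehicle H3K27Ac that had an R5020 H3K27Ac region, in percent, by 10 groups of PR fold (left) and by distance in kb to the nearest vehicle H3K27Ac region (right; all sites, and the groups of lowest and highest PR fold). Error bars are 95% Wilson intervals over regions and cover counting error only. The share reaches 26.5% in the strongest PR group and falls from 40.7% to 1.06% with distance. The PR and H3K27Ac lists chose the sites, so these shares are description and carry no test.

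Most of the acetylation was in small regions of its own. The sites overlapped 11033 R5020 H3K27Ac regions, of which 8892 (80.6%) shared no base with any vehicle H3K27Ac region. By site, 8196 (78.7%) lay in such new regions alone and 2222 (21.3%) in regions that also covered vehicle acetylation and extended past it. New regions had a median width of 345 bp and those that extended older acetylation 1152 bp. The median PR fold was 11.0 at sites in new regions and 6.84 at sites in extended ones. A vehicle H3K27Ac region lay under 1 kb from 4247 sites (40.8%), and none lay within 10 kb of 2284 (21.9%). The PR summit fell within the acetylated region at 4927 sites (47.3%), and the median distance between PR and H3K27Ac summits was 239 bp. Of all 46909 H3K27Ac regions found only with R5020, 21.3% held an R5020 PR region, as did 15.6% of the 29107 found only with vehicle. Among these R5020-only regions the share with PR was 16.3% in the lowest of 4 fold groups and 30.1% in the highest. Vehicle-only regions also rose, from 12.1% in the lowest of their 4 fold groups to 20.2% in the highest. These lists chose the sites, so the shares are description.

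The 10 sites with the highest PR −log10 q all reached 420.8, a value that 15 sites shared, and 5 of them shared the highest fold of 56.6. They lay in or near ITGA9 (an integrin alpha chain), RAPGEF6 (an exchange factor for Rap proteins), RIC8B (a chaperone of G protein alpha subunits), COPRS (a partner of the arginine methyltransferase PRMT5), AKT2 (a kinase of insulin signalling), RERE (a corepressor), NFIA (a nuclear factor I protein), AFF1 (a scaffold of the super elongation complex), ZNF282 (a zinc finger protein) and RGS10 (a regulator of G protein signalling). Their H3K27Ac fold ran from 2.66 at COPRS to 7.85 at AKT2. All 10 had an R5020 Maf1 region, with folds from 12.2 at RGS10 to 18.8 at RERE. The ITGA9 site (chr3:37752918-37754016), within the gene's span, was 98773 bp from the nearest vehicle H3K27Ac region. Its H3K27Ac region of 1333 bp had a fold of 5.74, and its Maf1 fold was 16.0. The AKT2 site (chr19:40252128-40252875) carried the widest acetylated region of the 10, at 2450 bp, and also an R5020 POLR3G region.

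The strongest acetylation looked different. The 5 sites with the highest H3K27Ac −log10 q (188.6 to 200.8) all lay at the edge of acetylation present before hormone, with a vehicle region 89 to 582 bp away. They were near ACTRT3 (an actin-related protein gene), in HEATR4, 51323 bp from LOC124900993, in NRSN2 and in MYNN (a zinc finger gene). Their PR folds were 13.5, 8.57, 4.10, 44.5 and 2.29, and only the NRSN2 site had a Maf1 region, with a fold of 12.3. The NRSN2 site sat in a single acetylated region of 37880 bp whose summit was 29080 bp away from the PR summit.

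Some strong PR sites gained acetylation far from any earlier acetylated region. Among the 25% of sites with the highest PR fold, the most remote lay 504595 bp from LSAMP, which encodes a neural adhesion protein (chr3:116950083-116950885). The nearest vehicle H3K27Ac region was 1165510 bp away. Its PR fold was 54.9, its H3K27Ac fold 3.99 and its Maf1 fold 11.6. The third most remote, 2275603 bp from the protocadherin gene PCDH7, had a PR fold of 53.6 and a Maf1 fold of 9.67. The other 3 of the 5 most remote had PR folds of 23.4 to 34.8 and no Maf1 region. One of them began just past the start of ITGBL1, an integrin beta-like gene, with its summit 598 bp past that start, and held none of the bases before it. The H3K27Ac folds of these 5 ran from 2.52 to 4.49, around the median of 3.61 of all newly acetylated sites.

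Of the 6 antibodies the rule did not use, Maf1 showed the widest change in share between treatments. With vehicle, 5 of 10418 sites (0.0480%) had a Maf1 region, against 1.35% of all R5020 PR regions. With R5020, 1761 (16.9%, 16.2 to 17.6) had one, against 10.2% of all R5020 PR regions, and the 5 vehicle sites were among them. Over the same treatments the share went from 1.94% to 24.5% of already acetylated sites and from 0.0332% to 1.61% of unacetylated sites. The R5020 share was 15.3 percentage points above that of unacetylated sites (14.6 to 16.0). It was below that of already acetylated sites, with a difference of −7.57 points (−8.39 to −6.72). That second difference changed sign with a stricter threshold and with a margin, and kept its sign at the other settings. Limited to regions with a −log10 q of at least 5 in the R5020 PR, R5020 H3K27Ac and Maf1 lists, the shares were 20.3% of newly and 19.3% of already acetylated sites, a difference of 0.941 points (−0.325 to 2.26). When a vehicle region within 1 kb was counted like an overlap, sites beside vehicle acetylation moved from the newly to the already acetylated set. The shares were then 21.9% and 19.2%, a difference of 2.76 points (1.69 to 3.86). With 50% of the shorter region shared the difference was −7.96 points (−8.87 to −7.035). With equal numbers of top H3K27Ac regions it was −5.65 points (−6.59 to −4.69). Already acetylated sites that kept acetylation had Maf1 in 28.0%, and the difference from them was −11.1 points (−12.0 to −10.2). That last comparison was not planned.

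Maf1 at newly acetylated sites lay almost entirely in the group of highest PR fold. All R5020 PR regions were split into 4 groups of equal size at folds of 4.10, 5.90 and 11.0. Newly acetylated sites had an R5020 Maf1 region in 1.39%, 0.658% and 0.728% of cases in the 3 lower groups and in 35.5% (34.1 to 36.8) in the highest, which held 1711 of the 1761 sites with Maf1. Already acetylated sites differed most in the weaker groups, with 17.8%, 14.9% and 11.6%, and reached 41.1% in the highest. Unacetylated sites stayed at or under 0.237% in the 3 lower groups and reached 8.07% in the highest. Over all R5020 PR regions the shares were 5.45%, 4.01% and 4.08% in the 3 lower groups and 27.2% in the highest. In the highest group the difference from already acetylated sites was −5.67 points (−7.23 to −4.09) and from unacetylated sites 27.4 points (26.0 to 28.8). The median PR fold was 37.6 at newly acetylated sites with Maf1 and 7.66 at those without. PR region width moves with fold, and its part in the Maf1 shares was not tested.

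The Maf1 summit lay close to the PR summit, at a median of 21 bp over the 1761 sites (interquartile range 9 to 39), and within 50 bp at 1459 of them (82.9%). The H3K27Ac summit of the same sites lay at a median of 318 bp. Over all newly acetylated sites, 1004 (9.64%) had the H3K27Ac summit within 50 bp of the PR summit. The Maf1 share was higher where acetylation was remote from that of vehicle cells. It was 28.8% (27.0 to 30.7) with no vehicle H3K27Ac region within 10 kb. With such a region under 200 bp away it was 8.59% (7.39 to 9.96). It was 11.1%, 13.9%, 18.3% and 24.3% from the lowest to the highest of 4 groups of H3K27Ac fold. It was 18.6% in new acetylated regions and 10.5% in extended ones. Near the ends of protein-coding genes it was 16.6% (13.7 to 19.9), close to the 16.9% elsewhere. PR fold was not held equal in these splits, and its part in them was not tested. The median PR fold was 11.0 at sites in new regions and 6.84 at sites in extended ones. At 100 kb and over from vehicle acetylation, 8.81% of the strongest of 10 PR fold groups was newly acetylated and 0.560% of the weakest. Under 200 bp away these shares were 61.5% and 40.7%.

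**Figure D2:**
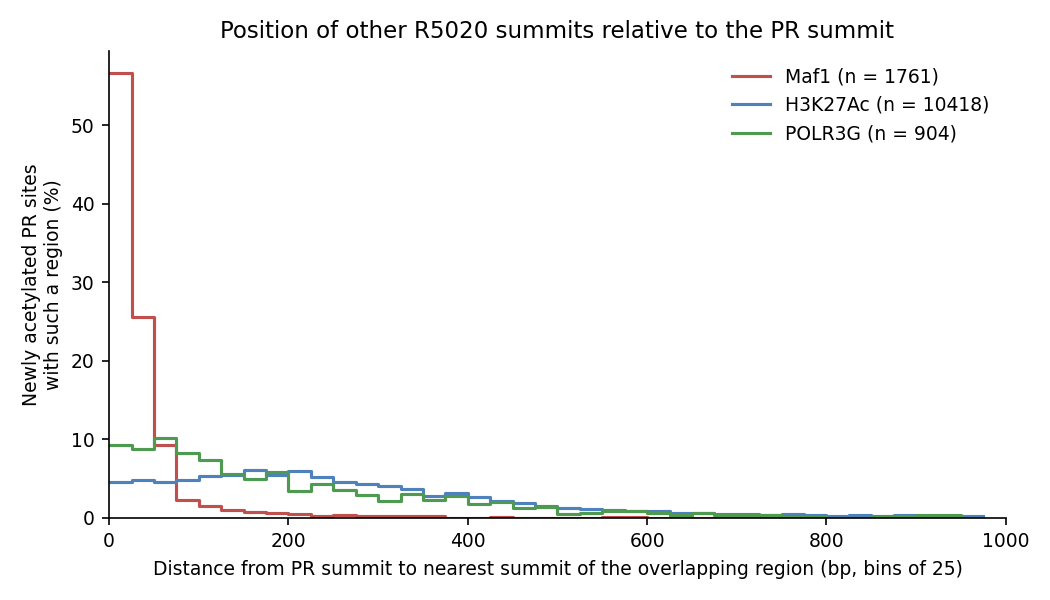
Distance in bp from the PR summit to the nearest summit of the overlapping R5020 Maf1, H3K27Ac or POLR3G region, as the percentage of newly acetylated PR sites with such a region, in bins of 25 bp up to 1000 bp. Maf1 summits pile up next to the PR summit (median 21 bp, n = 1761), whereas H3K27Ac summits are spread broadly around it (median 239 bp, n = 10418).

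POLR3A, POLR3C, POLR3GL and Brf1 were rare at these sites, as over the R5020 PR list as a whole. The catalytic subunit POLR3A was found at 8 sites with vehicle and 7 with R5020, against 0.143% and 0.127% of all R5020 PR regions, and 6 sites had it in both. Brf1, which places the polymerase at tRNA genes, was found at 5 and 12 sites, against 0.105% and 0.288%. POLR3C was found at 2 sites in each treatment, against 0.177% and 0.194%, and POLR3GL, the paralog of POLR3G, at 7 and 9 sites, against 0.0826% and 0.0676%. For POLR3GL the R5020 share of newly acetylated sites was 0.0864%, which differed from that of already acetylated sites by 0.000176 points (−0.0532 to 0.0817) and from that of unacetylated sites by 0.0327 points (−0.0109 to 0.111). Of 422 tRNA genes, 3 had a newly acetylated site within 200 bp (TRE-CTC2-1, TRK-CTT1-1 and TRS-CGA1-1), whereas 107 had an R5020 PR region of any kind there.

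Maf1 met Brf1 or POLR3A at 8 sites. The same count was not made over all R5020 PR regions, so the number is not read as high or low. At 4 of them the PR fold was over 45: in ST3GAL3 (a sialyltransferase gene), RGS12 (a regulator of G protein signalling) and DAAM1, and 46327 bp from RALGAPA2 (a subunit of a Ral GTPase-activating complex). These 4 had Maf1 folds of 20.7, 26.1, 16.9 and 6.56 and an R5020 Brf1 region. They had no POLR3A region and no vehicle Brf1 region. The Brf1 list was longer with R5020, at 1157 regions against 370 with vehicle. The RGS12 site (chr4:3353840-3355780) had the highest Maf1 fold of all newly acetylated sites, with a PR fold of 51.7 and an H3K27Ac fold of 8.60 over 3087 bp. At 2 others, in PGBD2 and at TRS-CGA1-1 beside PER1, Brf1 and POLR3A were present in both treatments, with PR folds of 5.42 and 8.88 and Maf1 folds of 3.37 and 2.84. The last 2 were at the 45S ribosomal RNA gene RNA45SN1 and 60419 bp from FCGR2A, with PR folds of 2.73 and 2.09.

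POLR3G was found at more of these sites than the other polymerase III subunits, at partly different sites in the 2 treatments. With vehicle 730 sites (7.01%, 6.53 to 7.51) had a POLR3G region, against 11.1% of all R5020 PR regions. The share was below the 32.9% of already acetylated sites (difference −25.9 points, −26.6 to −25.2) and 5.78 points above that of unacetylated sites (5.30 to 6.29). It was 2.00% (1.62 to 2.47) when the R5020 PR, R5020 H3K27Ac and POLR3G regions were limited to a −log10 q of at least 5, and 4.41% (3.93 to 4.95) with no vehicle region within 1 kb. With R5020, 904 sites (8.68%, 8.15 to 9.23) had one, against 9.73% of all R5020 PR regions. Both treatments shared 316 sites, 414 had POLR3G only with vehicle and 588 only with R5020. The R5020 POLR3G list was shorter than the vehicle list, at 46874 against 58423 regions, and the number of already acetylated sites with POLR3G with R5020 was 0.859 times that with vehicle. For newly acetylated sites it was 1.24 times. One of the 3 libraries titled R5020 for POLR3G carries the ethanol tag, and the lists cannot be made without it.

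The gain of POLR3G lay at the strongest PR sites. In the highest of the 4 PR fold groups, 285 newly acetylated sites (5.90%, 5.27 to 6.61) had POLR3G with vehicle and 478 (9.90%, 9.09 to 10.8) with R5020, a ratio of 1.68. In the 3 lower groups the counts were 161 and 153, 118 and 114, and 166 and 159. Already acetylated sites had ratios of 0.758 to 0.792 in the lower groups and 1.04 in the highest, and unacetylated sites 0.650 to 0.894 and 1.20. The differences between these ratios were not tested. POLR3G summits lay less close to PR than Maf1 summits, with 168 of 904 (18.6%) within 50 bp. Near gene ends 22.0% of newly acetylated sites had vehicle POLR3G, and elsewhere 6.17%.

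**Figure D3:**
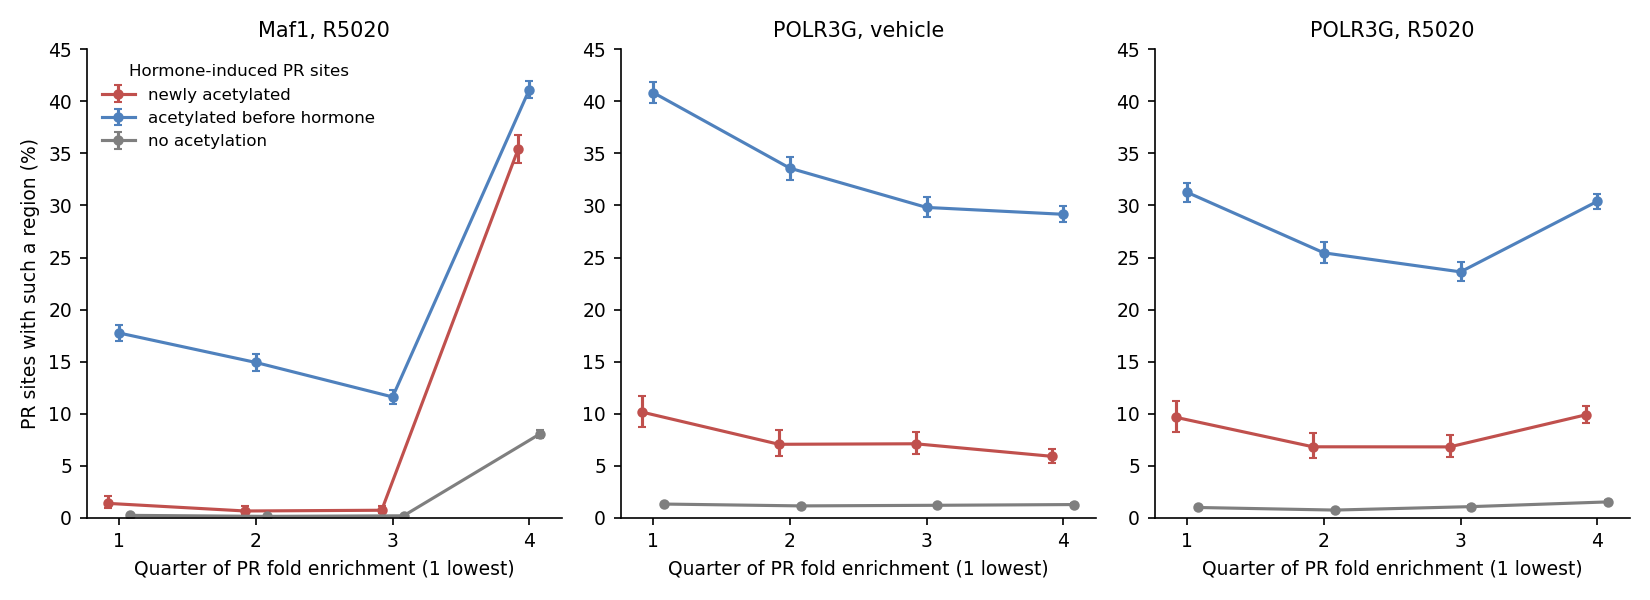
Percentage of hormone-induced PR sites with an R5020 Maf1 (left), vehicle POLR3G (middle) or R5020 POLR3G region (right), over 4 equal groups of PR fold, for newly acetylated, already acetylated and unacetylated sites, with 95% Wilson intervals. Maf1 at newly acetylated sites is at most 1.39% below the highest group, where it is 35.5%, and POLR3G at them changes between treatments from 5.90% to 9.90% in that group.

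Few newly acetylated sites lay at gene ends, and most lay inside genes. A gene end here is either end of the gene's span, so starts and far ends are counted together. Of the sites, 549 had a protein-coding gene's end within 1 kb (5.27%, 4.86 to 5.72), against 9.77% of all R5020 PR regions. This was below the 27.3% of already acetylated sites (difference −22.1 points, −22.7 to −21.5) and 2.47 points above unacetylated sites (2.05 to 2.93). Within 5 kb of an end the share was 22.1%, against 21.7% of all R5020 PR regions and 44.5% of already acetylated sites. Inside the span of a protein-coding gene there were 6785 (65.1%), against 57.6% of all R5020 PR regions, 66.3% of already acetylated and 53.7% of unacetylated sites. Among hormone-induced PR sites outside vehicle acetylation, the newly acetylated share was highest on chromosomes 16, 17 and 19 (14.8%, 14.8% and 14.4%) and lowest on chromosome 13 (4.56%). Of all R5020 PR regions, the share was 9.17%, 8.66% and 6.37% on chromosomes 16, 17 and 19, and 3.80% on chromosome 13. Over all chromosomes it was 6.02%. By this measure chromosome 19 was below chromosomes 20 (8.33%) and 22 (8.10%). The genes with the most sites within 10 kb were ANKRD11, a chromatin regulator, with 45 and 6 of them with Maf1, LOC128462377, which overlaps it, with 30, the potassium channel gene KCNMA1 with 27, and RAD51B (a DNA repair gene) and TNS3 (a tensin gene) with 26 each. ANKRD11 had 18.5 sites per 100 kb and KCNMA1 3.43, since their spans are 222.9 and 768.2 kb.

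The sites were often single. Joined where they lay under 10 kb apart, 5810 (55.8%) stood alone and 2322 (22.3%) were in clusters of 3 or more. The largest cluster had 14 sites over 29.7 kb in CAPZB, which encodes an actin capping protein, with PR folds from 4.49 to 36.4 and 4 sites with Maf1. There the number of H3K27Ac regions was 8 with vehicle and 26 with R5020. A cluster of 10 sites in MTMR12, a myotubularin-related gene, had the highest median PR fold of the 5 largest clusters, at 30.9, and 5 H3K27Ac regions with vehicle against 24 with R5020. The H3K27Ac lists chose the sites, so the rule itself favours more R5020 than vehicle regions in a cluster. The counts of H3K27Ac regions are description only.

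Listed genes were read by their newly acetylated sites within 10 kb of the gene's span. Such a site was found for 24.3% of all 19974 protein-coding genes, and for 44 of 97 genes on 6 lists (45.4%). Within 50 kb it was found for 42.2% of all protein-coding genes and 66 of the 97. Longer genes can hold more sites, and the lists differ in gene length. The lists were made with earlier results of these data known, so the counts are description.

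Among early targets of steroid receptors, 9 of 17 genes had a site. FKBP5, which encodes a co-chaperone that lowers hormone binding of steroid receptors, had 11 sites, with PR folds from 4.10 to 47.1, and 4 of them had Maf1. Its strongest site (chr6:35722305-35722949) had an H3K27Ac fold of 25.6 and a Maf1 fold of 11.0, 755 bp from vehicle acetylation. R5020-only H3K27Ac regions with a PR region reached a fold of at most 11.2. The fold of 25.6 thus belonged to a region that also covered vehicle acetylation. ZBTB16, a zinc finger repressor gene, had 7 sites with PR folds from 2.13 to 28.6 among 23 R5020 PR regions, and no already acetylated site. Its strongest site had an H3K27Ac fold of 6.31. DUSP1 (a MAP kinase phosphatase) had 1 site of PR fold 37.6, MT2A (a metallothionein) 1 of 47.8 and KLF15 (a Krüppel-like factor) 1 of 36.5. TSC22D3, the GILZ gene, had 2 and NFKBIA, the inhibitor of NF-κB, had 2. SGK1, PDK4, ERRFI1, TIPARP, BCL6, CDKN1C, CEBPD and GADD45B had none, though each had R5020 PR regions, from 3 at PDK4 and CEBPD to 11 at ERRFI1 and BCL6.

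Among progestin targets of breast cancer cells, 8 of 18 had a site. A single site of PR fold 49.3 and Maf1 fold 7.72 inside STAT5A, a mediator of prolactin signalling (chr17:42294215-42295038), was also within 10 kb of STAT5B. HSD17B2, which inactivates estradiol, had 7 sites and none with Maf1. ACSL1, an acyl-CoA synthetase gene, had 5, with PR folds from 3.55 to 45.2, and HSD11B2, which inactivates cortisol, had 4, the strongest of fold 46.98 lying 5587 bp outside the gene. EGFR, CCND1, CDKN1A, KLF4, SOX4 and FASN were among the 10 genes with none within 10 kb.

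Of 11 mammary paracrine and alveolar mediators 5 had a site, and 21 of the 29 sites were at IGF1R, the receptor of insulin-like growth factor 1. IGF1R spans 316 kb and had 110 R5020 PR regions, of which 46 were already acetylated. Its newly acetylated sites had PR folds from 3.58 to 45.2, and 3 had Maf1. PRLR, the prolactin receptor, had 4, and the progesterone-induced signals WNT4, TNFSF11 (RANKL) and AREG had none.

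Of 12 luminal receptors and factors 5 had a site. ESR1 had 6, the strongest of PR fold 51.01 (chr6:152089713-152090354) with an H3K27Ac fold of 6.24 and a Maf1 fold of 7.70. CA12 (a carbonic anhydrase) had 6, the strongest of fold 49.98, and GREB1 (a coactivator of the estrogen receptor) had 4. PGR itself had 2, of folds 6.46 and 8.20, beside 14 already acetylated sites. FOXA1, GATA3, TFAP2A, TFAP2C, XBP1 and TFF1 were among those with none.

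Of 16 acetylation writers, readers and erasers 10 had a site, on genes with a median span of 99.1 kb against 24.2 kb for all protein-coding genes. The acetyltransferase genes CREBBP, KAT2B and EP300 had 4, 4 and 2. The site in CREBBP (chr16:3776282-3776797) had a PR fold of 49.7 and lay 57660 bp from vehicle acetylation. SMARCA4, a chromatin remodeller, had 1 of PR fold 54.8. Of 23 polymerase III genes 7 had a site: POLR3A with 4, BRF1 and POLR3K with 3 each, BRF2 with 5, and POLR3E, GTF3A and GTF3C4 with 1 each. The GTF3C4 site, 8014 bp outside the gene, had a PR fold of 51.3 and a Maf1 fold of 15.6. MAF1, POLR3G and POLR3GL had none within 10 kb.

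**Figure D4:**
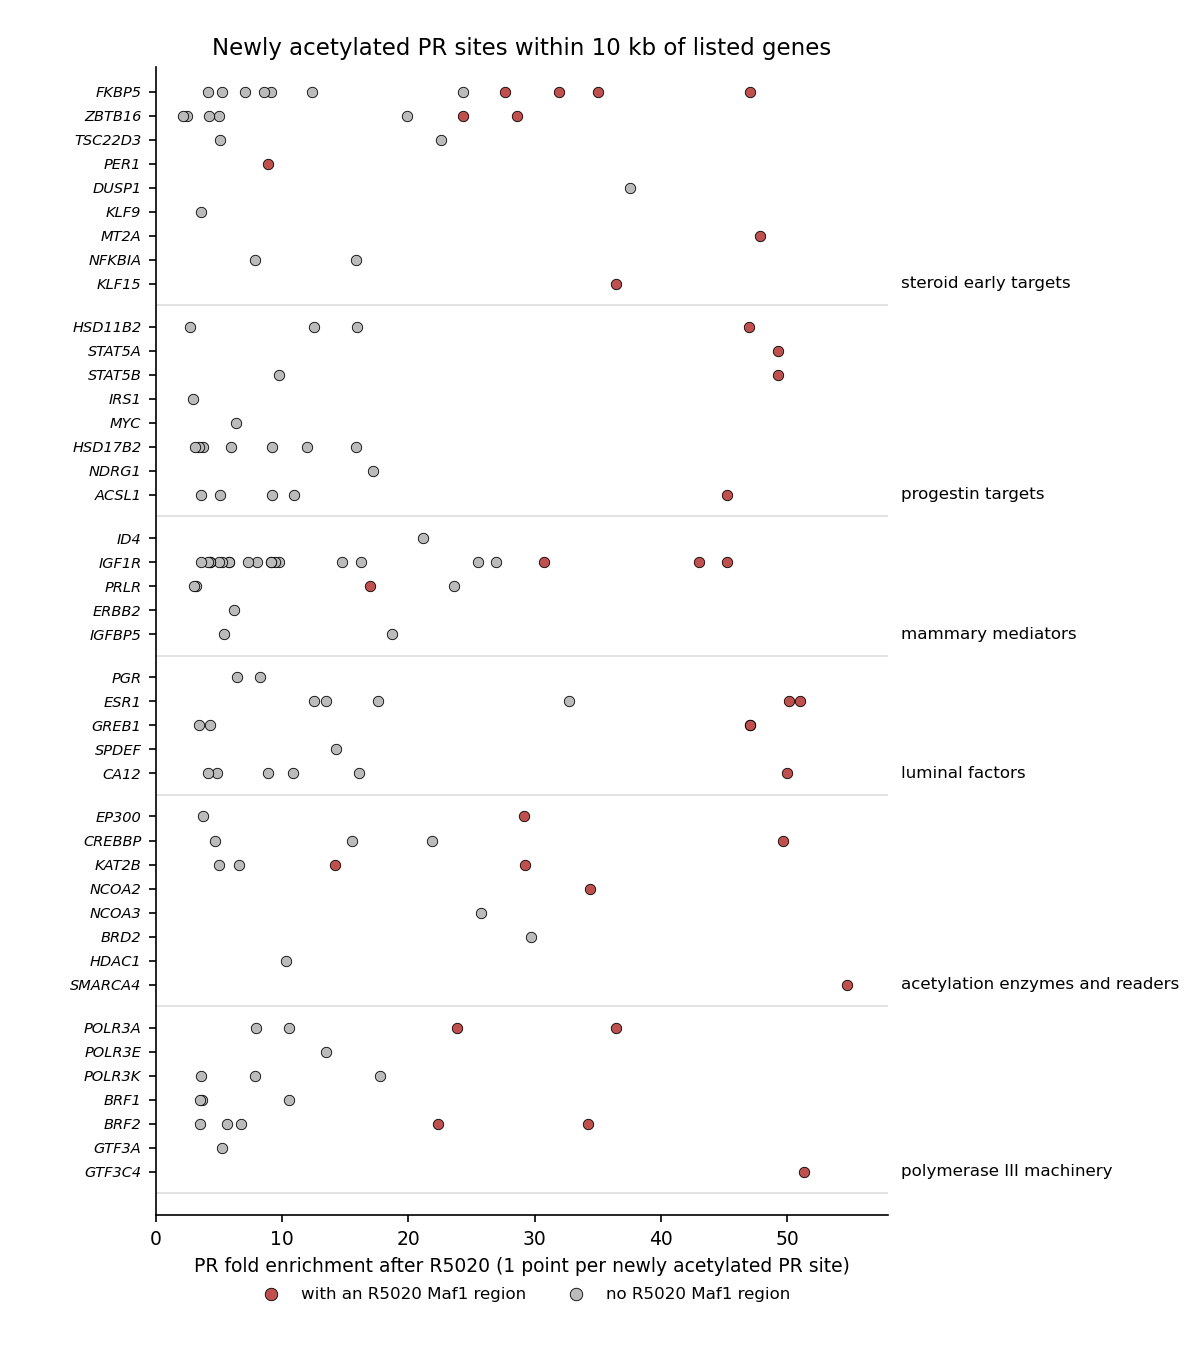
PR fold enrichment after R5020 of each newly acetylated PR site within 10 kb of 42 of the listed genes that had 1, grouped by list, with sites that had an R5020 Maf1 region in red. The sites with Maf1 are mostly those of high PR fold, as at FKBP5, where the 4 sites with Maf1 have the highest folds of the 11.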

How the data were processed

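The labels list 54 libraries in 18 groups of 3, and 16 lists of enriched regions, 1 per antibody and treatment, were used; the inputs were not analysed here. Per the submitters' processing notes, cutadapt, Bowtie2, MACS2 and hg38 were used; versions, settings and how the 3 libraries of a group were combined are not given in the sources used here. For each region the authors deposited a fold (the ratio of ChIP signal to background) and a −log10 q-value; both served here to describe, filter and order regions of 1 list, and were not compared between lists. Regions on chromosomes 1 to 22 and X were compared by overlap of 1 bp with Python 3.11.15, numpy 2.4.6, pandas 2.3.3 and scipy 1.17.1, after the overlap code was tested on simulated data. Gene spans, starts and the 300-base windows came from RefSeq tables of GRCh38.p14; no genome was given, so bases of the regions elsewhere were not read. All 97 listed genes were matched by symbol.

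The sites and gene lists were chosen with earlier results of these data known. The rule for named loci took the 10 sites of highest PR −log10 q, the 5 of highest H3K27Ac −log10 q, the 5 most remote from vehicle acetylation among the 25% of highest PR fold, sites with Maf1 and Brf1 or POLR3A, the 5 genes with most sites, listed genes, and the sites nearest the threshold. Other promoters shown were chosen after their values were seen. Alternatives were an overlap of 50% of the shorter region, −log10 q of at least 5, a 1 kb margin, equal list lengths, PR fold groups and other distances to genes. Unplanned alternatives were sites in new acetylated regions only, and a comparison with already acetylated sites that kept acetylation. Some listed genes are counted but not reported by name here.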

Additional observations from a re-analysis of the deposited data

How the results depend on the processing

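For 6 differences of shares between newly acetylated and other hormone-induced PR sites, 55 of 57 alternatives kept the direction with an interval that excluded 0. Both exceptions were the Maf1 difference from already acetylated sites, which was 0.941 points at a −log10 q of at least 5 and 2.76 points with no vehicle region within 1 kb, settings that change the comparison set as well; the cause was not tested. The 57 alternatives include the PR fold groups, which are subsets of the same regions. They also include unplanned settings: new acetylated regions only, and already acetylated sites that kept acetylation. The 57 are thus not independent checks. At a −log10 q of at least 5 there were 4148 sites, of which 20.3% had R5020 Maf1, 2.00% vehicle POLR3G and 5.74% a gene end within 1 kb. With no vehicle region within 1 kb there were 6164, with 21.9%, 4.41% and 4.19%. With equal numbers of top H3K27Ac regions Maf1 was at 18.8% and POLR3G at 7.62%. With 50% of the shorter region shared 7.20% lay at a gene end, and 22.1% lay within 5 kb of one. In new acetylated regions only, a choice made after seeing the data, the values were 18.6%, 5.81% and 4.56%. No paired analysis was possible because each list pools the 3 libraries of its group, and no replicate could be left out. Depth is unknown, and a list grows with depth as well as with binding.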

Other observations

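MicroRNA genes were not part of the comparisons. Of 1911 microRNA genes in the RefSeq table, 16 (0.837%) overlapped a newly acetylated PR site and 168 (8.79%) an R5020 PR region of any kind. The 16 included 5 copies of MIR941 and MIR378H, MIR320B1 and MIR600.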
